A study of Mus musculus with 60 samples.

Results

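The genes Krt8, Krt18, Krt19, Cdh1, Cdh2, Epcam, Cldn6, Vim and Itgb4 were followed across 20 groups of mESCs. They are 9 of the 55487 genes counted and were chosen by symbol as epithelial, adhesion and mesenchymal genes, with earlier results of these data known. The tests below therefore say how large a difference was beside the spread between cultures, and they are not independent evidence for the choice of genes. Itgb4 entered the list because of its change after POLE4 depletion in MCM2-2A cells at T0, so that change is described without a test.

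The cells were E14JU mouse ES cells whose POLE4 carries a degron tag (POLE4-dTAG), so every Ctrl carries the tag too. POLE4 is a subunit of the leading strand DNA polymerase that passes parental histones to the leading strand, and MCM2-2A is a mutant of the helicase subunit MCM2 that passes them to the lagging strand. Cells of 1 POLE4-dTAG clone with WT MCM2 and 1 POLE4-dTAG clone with MCM2-2A received DMSO (Ctrl, Ctrl MCM2-2A) or 1 µM dTAG, which removes the tagged protein (dPOLE4, dPOLE4 MCM2-2A). RNA was taken after 24 h of treatment in FBS + LIF (T0), after a further 12 h (T12), 24 h (T24) or 60 h (T60) of retinoic acid (RA) without LIF, and in a separate experiment after 96 h of treatment in FBS + LIF, with 3 cultures in each group. With 1 clone per line, an effect of MCM2-2A and a difference between clones cannot be told apart.

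Keratins 8, 18 and 19 are the keratins of simple epithelia, where a type II keratin (Krt8) pairs with a type I keratin (Krt18 or Krt19) to build intermediate filaments. E-cadherin (Cdh1) and EpCAM hold epithelial and pluripotent cells together, and the replacement of E-cadherin by N-cadherin (Cdh2) together with more vimentin (Vim) is the textbook sign of a transition from epithelial to mesenchymal cells. Claudin 6 (Cldn6) is a tight junction protein of early embryonic epithelia, and integrin beta 4 (Itgb4) pairs with integrin alpha 6 in the hemidesmosomes that anchor epithelial cells to laminin.

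The 48 libraries of T0 and RA held 10461077 to 46609151 counts each, and the 12 libraries of 96 h held 7126100 to 23598266. Levels are given in CPM, counts scaled to library size with TMM within each experiment, so a level of 96 h beside a level of T0 rests on separate scalings. Libraries of a group correlated with r of at least 0.982 across features, and 34 of the 48 and 7 of the 12 libraries were closest to a library of their own group. All 12 ES cell markers reached 1 CPM in every group at T0 and at 96 h, and their summed level fell from 4846 to 5005 CPM at T0 to between 664 and 768 CPM at T60 in Ctrl. Pole4 RNA does not report the depletion, since dTAG acts on the protein. It was measured at 52.4 CPM in both Ctrl and dPOLE4 at T0. In the MCM2-2A line it was lower, at 33.1 CPM in Ctrl MCM2-2A and 31.3 CPM in dPOLE4 MCM2-2A at T0. The part of this difference in the comparisons of depletion between backgrounds was not tested. A gene was called when edgeR's Benjamini-Hochberg adjusted p over all features was below 0.01 with a log2 fold change beyond 0.58 in either direction. In bulk RNA, fewer cells of a type and less RNA per cell cannot be told apart.

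Krt8 and Krt18 are neighbours on chromosome 15, in opposite orientation and 23697 bases apart, and their upstream stretches are shown because the levels of both genes moved together across groups. Krt8 (ENSMUSG00000049382) lies from 101996698 to 102004482 on the minus strand and Krt18 (ENSMUSG00000023043) from 102028180 to 102032027 on the plus strand of GRCm38. The stretches below, from RefSeq promoters of GRCm38.p6, end at the base before the annotated gene and cover chr15:102004483-102004592 for Krt8 (minus strand, 110 bases) and chr15:102027966-102028179 for Krt18 (plus strand, 214 bases). Capitals mark AGGTCA, a core element of retinoic acid and related nuclear receptors, and CACCTG, an E-box.
Krt8: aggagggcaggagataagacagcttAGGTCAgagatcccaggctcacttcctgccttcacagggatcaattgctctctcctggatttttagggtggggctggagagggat
Krt18: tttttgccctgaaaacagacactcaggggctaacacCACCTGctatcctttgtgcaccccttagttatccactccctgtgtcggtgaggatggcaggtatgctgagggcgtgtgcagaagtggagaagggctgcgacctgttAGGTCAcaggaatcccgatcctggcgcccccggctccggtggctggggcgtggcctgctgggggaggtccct
Both strands were searched for 6 motifs. AGGTCA occurred 1 time in each stretch, and 6.36% and 12.3% of all 32851 promoters held it in the same 110 and 214 bases. CACCTG occurred 1 time in the Krt18 stretch, against 15.2% of promoters, and 0 times in the Krt8 stretch. The TATA box (TATAAA), the CCAAT box, the GC box (GGGCGG) and the AP-1 site (TGANTCA) were in neither stretch. These matches are letters in a window and not binding sites.

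At T0 in Ctrl, per kilobase of exon, Krt18 stood at 114 ± 22.8, Krt8 at 106 ± 20 and Cdh1 at 95 ± 5.23 CPM per kb (SD, n = 3). These levels lay within their spread of each other. Vim at 49.7 ± 9.44, Krt19 at 46.5 ± 8.85 and Epcam at 35.7 ± 1.13 CPM per kb formed the next group, in which neighbours also lay within the larger SD except that Epcam was below Krt19 by more than 1 SD. Cldn6 followed at 28.6 ± 2.43 CPM per kb. Itgb4 (2.21 ± 0.257) and Cdh2 (1.89 ± 0.474 CPM per kb) were the lowest and did not differ beyond their spread. At T60 in Ctrl the order of this length scaled level was Krt18 (595 ± 57.9), Krt8 (400 ± 37.6), Krt19 (139 ± 15.2), Cdh1 (100 ± 2.78), Cldn6 (90.7 ± 5.87), Vim (73.1 ± 4.17), Epcam (27.4 ± 0.447), Cdh2 (11.7 ± 1.2) and Itgb4 (4.08 ± 0.122 CPM per kb), and each gap between neighbours was larger than the larger of their SDs.

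The first question was how these genes moved during RA. All 3 keratins were higher at T60, and Krt19 was lower at T24 before that. Krt8 was measured at 249, 203 and 171 CPM in the Ctrl libraries at T0, at 173, 150 and 135 CPM at T12, and at 158, 160 and 153 CPM at T24. At T60 it reached 835, 699 and 816 CPM, above every earlier Ctrl library. Its log2 fold change over T0 was -0.44 at T12 (SE 0.12, adjusted p = 0.0149) and -0.40 at T24 (adjusted p = 0.00238), neither of which passed both thresholds, and 1.89 at T60 (SE 0.11, adjusted p = 6.17e-10). Krt18, its filament partner, went from 199, 155 and 135 CPM at T0 to 902, 758 and 903 CPM at T60, a log2 fold change of 2.37 (SE 0.12, adjusted p = 8.86e-11). Krt19 (ENSMUSG00000020911, chromosome 11 from 100140810 to 100148665) fell by 0.78 on the log2 scale by T24 (adjusted p = 1.23e-05), from 105, 77 and 76.4 CPM to 51.6, 47.4 and 51.3 CPM. It then rose to 287, 232 and 251 CPM at T60, 1.56 above T0 on the log2 scale (adjusted p = 4.9e-09). At T12 Krt19 stood 0.56 lower (adjusted p = 0.00425), just under the fold threshold, and 3 of the 6 fits that left out a library called it.

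**Figure D1:**
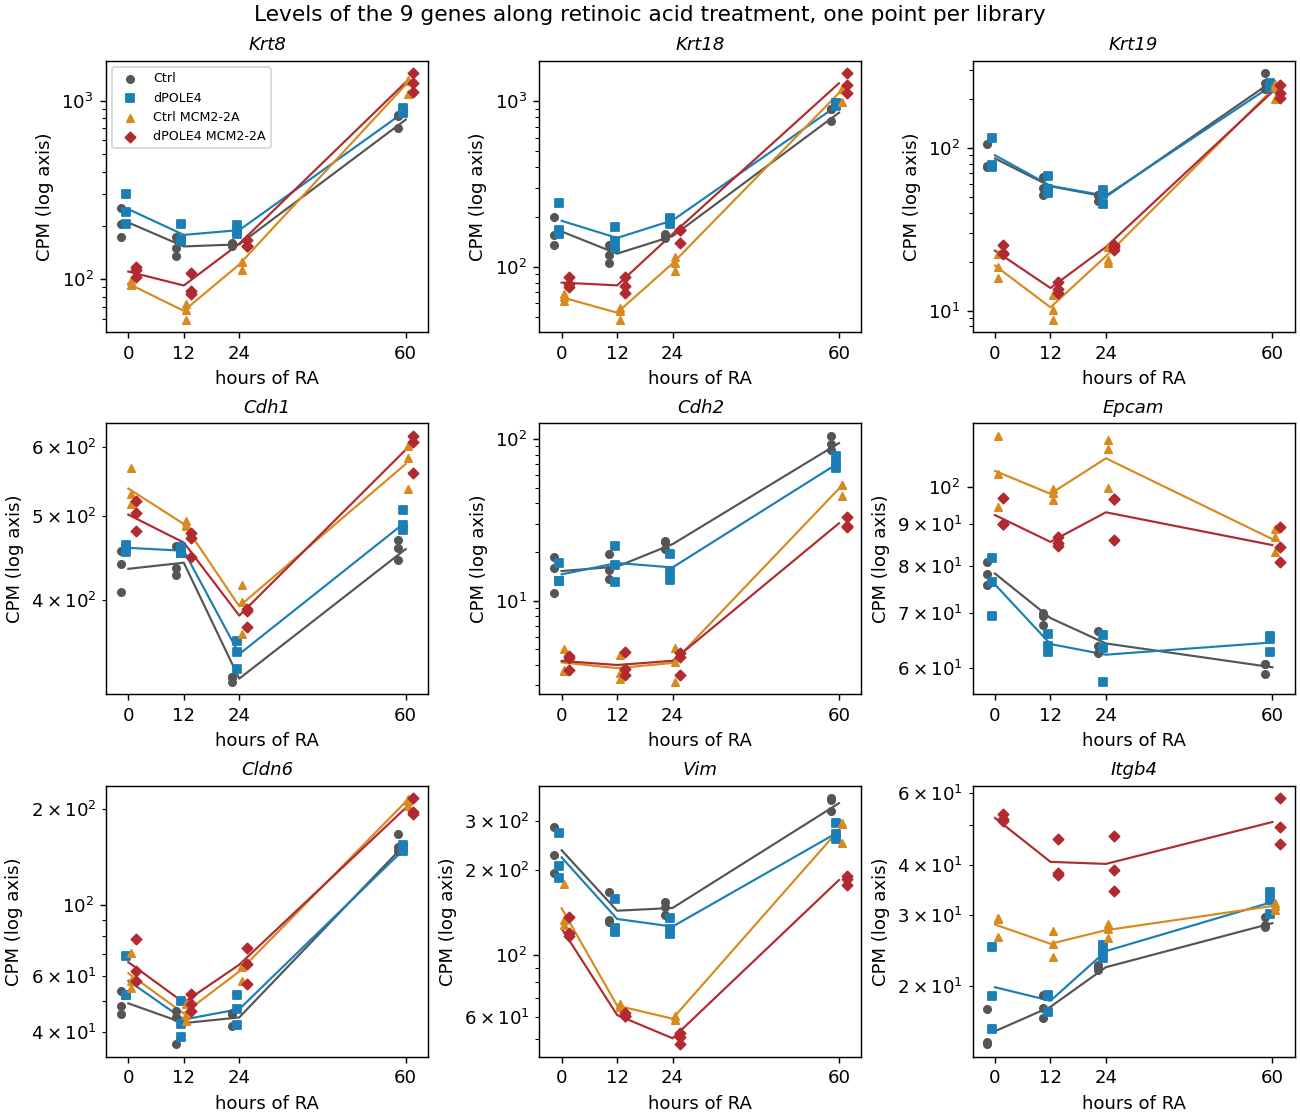
Level of each gene in CPM (log axis, a different range in each panel) against hours of RA in Ctrl, dPOLE4, Ctrl MCM2-2A and dPOLE4 MCM2-2A cells. Each point is a library, shifted sideways by group for legibility, and lines join group means; the keratins and Cdh2 start lower in MCM2-2A cells, and Krt8 and Krt18 end higher there at T60, while Itgb4 is highest in dPOLE4 MCM2-2A cells throughout.

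The cadherins did not exchange places. Cdh2 (ENSMUSG00000024304, chromosome 18 from 16588877 to 16809246) was measured at 18.6, 11.1 and 16 CPM at T0 and at 93.1, 105 and 85.3 CPM at T60 in Ctrl, a log2 fold change of 2.61 (SE 0.13, adjusted p = 1.46e-10). Cdh1 (ENSMUSG00000000303, chromosome 8 from 106603351 to 106670246) stood at 408, 455 and 441 CPM at T0 and at 460, 444 and 470 CPM at T60, and the groups overlapped. Between these times Cdh1 was measured at 322 to 327 CPM at T24, 0.41 lower on the log2 scale (SE 0.04, adjusted p = 1.67e-06), which is under the fold threshold although every T24 library lay below every T0 library. The ratio of Cdh1 to Cdh2 CPM within a library was 30.1 ± 9.8 at T0, 14.6 ± 0.942 at T24 and 4.9 ± 0.63 at T60 in Ctrl (SD, n = 3). Per kilobase, Cdh1 stood at 100 and Cdh2 at 11.7 CPM per kb in Ctrl at T60, so Cdh1 was still the higher of both.

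Vim (ENSMUSG00000026728, chromosome 2 from 13573927 to 13582826) was lower at T12 and T24. It was measured at 284, 196 and 227 CPM at T0 and at 167, 131 and 133 CPM at T12, a log2 fold change of -0.71 (SE 0.12, adjusted p = 0.000944). The fall at T24 was 0.68 on the log2 scale (adjusted p = 3.38e-05), and without the T0 library of replicate 1, the highest of its group, the values became -0.56 at T12 and -0.53 at T24 and neither was called. At T60 Vim stood at 361, 355 and 324 CPM, 0.54 above T0 (adjusted p = 0.000235), which was not called; it was called without Ctrl T0 replicate 1 (0.70, adjusted p = 7.47e-07) and without Ctrl T60 replicate 3 (0.59). Cldn6 (ENSMUSG00000023906, chromosome 17 from 23679249 to 23682446) stayed between 36.5 and 53.7 CPM up to T24 and reached 168, 148 and 152 CPM at T60, a log2 fold change of 1.65 (SE 0.07, adjusted p = 3.21e-11). Epcam (ENSMUSG00000045394, chromosome 17 from 87635979 to 87651129) went from 78.3 ± 2.48 CPM at T0 to 60.1 ± 0.981 CPM at T60, a log2 fold change of -0.40 (adjusted p = 2.54e-05) with no overlap of libraries and under the fold threshold. Itgb4 (ENSMUSG00000020758, chromosome 11 from 115974709 to 116008412) went from 17.6, 14.5 and 14.4 CPM at T0 to 29.6, 28.3 and 28 CPM at T60, a log2 fold change of 0.87 (SE 0.10, adjusted p = 1.19e-06), after 0.53 at T24 (adjusted p = 0.000107), which was not called.

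In counts, 1 of the 9 genes was called in Ctrl at T12 (Vim), where 11.3% of all tested features were, 2 at T24 (Krt19 and Vim) beside a background of 21.8%, and 6 at T60 beside 50.6%. In dPOLE4 cells 6 were called at T60 beside 48.1%, in Ctrl MCM2-2A cells 6 beside 47.5%, and in dPOLE4 MCM2-2A cells 5 beside 42.2%. Krt8, Krt18, Krt19, Cdh2 and Cldn6 rose in all 4. Their log2 fold changes in dPOLE4 cells were 1.80, 2.32, 1.41, 2.28 and 1.37 in this order. Those in Ctrl MCM2-2A cells were 3.71, 4.12, 3.62, 3.63 and 1.80, and those in dPOLE4 MCM2-2A cells 3.50, 3.98, 3.22, 2.78 and 1.59. The sixth gene was Itgb4 in Ctrl and dPOLE4 cells (0.69 in dPOLE4) and Vim in Ctrl MCM2-2A cells (0.94).

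**Figure D2:**
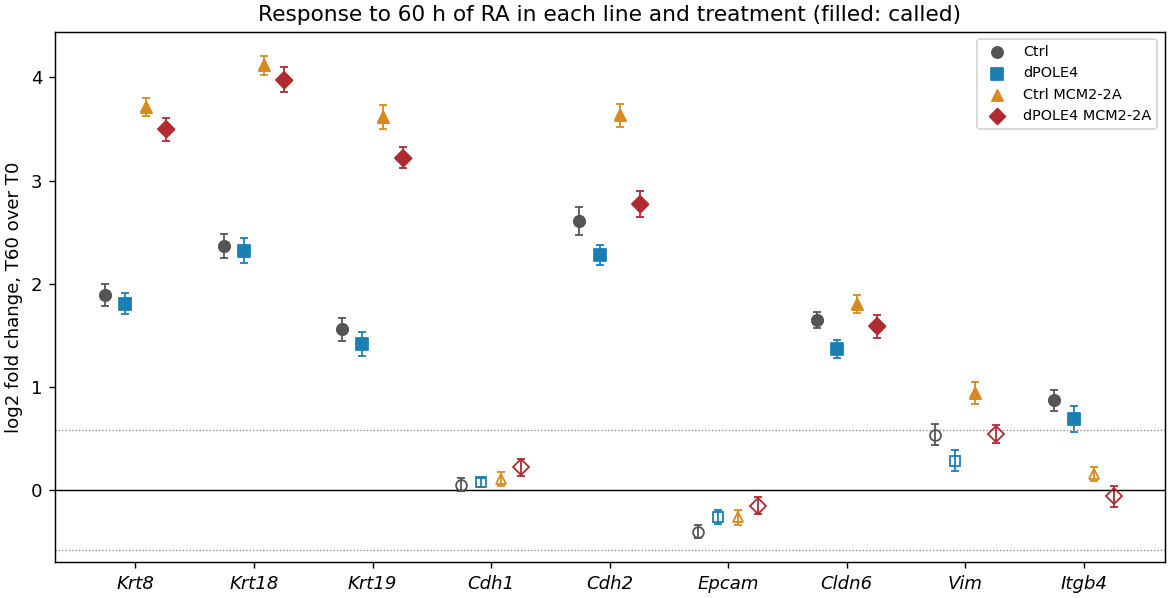
Log2 fold change of T60 over T0 with its standard error for the 9 genes in Ctrl, dPOLE4, Ctrl MCM2-2A and dPOLE4 MCM2-2A cells; filled symbols passed both thresholds and dotted lines mark the fold threshold in each direction. The keratins sit between 1.41 and 2.37 in cells with WT MCM2 and between 3.22 and 4.12 in MCM2-2A cells.

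The balance between the filament partners shifted during RA. The ratio of Krt8 to Krt18 CPM within a library was 1.25, 1.31 and 1.27 in Ctrl at T0 and 0.926, 0.921 and 0.903 at T60. In dPOLE4 cells it went from 1.32 ± 0.0928 to 0.914 ± 0.0167, in Ctrl MCM2-2A cells from 1.45 ± 0.0773 to 1.09 ± 0.0104, and in dPOLE4 MCM2-2A cells from 1.38 ± 0.0439 to 0.987 ± 0.0202 (SD, n = 3). The T60 libraries lay below the T0 libraries of the same line and treatment in each case. An exact permutation test of 3 libraries against 3 cannot go below p = 0.1, so no test is given. These ratios are not corrected for length, which cancels between times. Krt8 shares 29.7% of its 50-base words with other genes, 26.9% with the pseudogene Krt8-ps, so some of its reads are uncertain; Krt8-ps itself reached at most 2.25 CPM in a library.

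**Figure D3:**
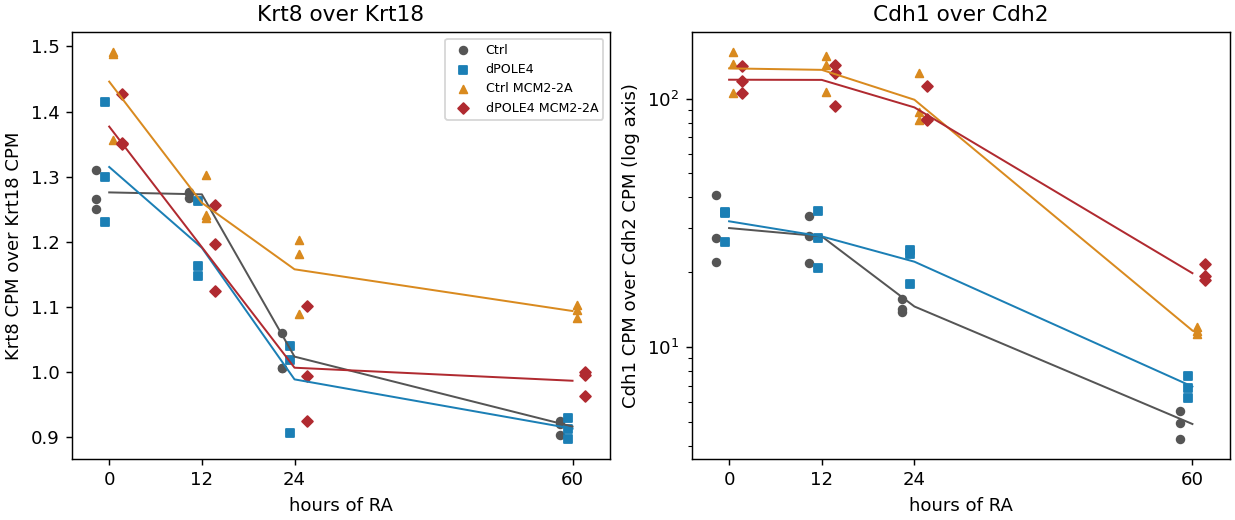
Ratio of Krt8 to Krt18 CPM (left, linear axis) and of Cdh1 to Cdh2 CPM (right, log axis) in each library against hours of RA, with lines through group means. Both ratios are lower at T60 than at T0 in all 4 groups, and Cdh1 over Cdh2 at T0 is 132 ± 25.2 in Ctrl MCM2-2A against 30.1 ± 9.8 in Ctrl.

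Genes of other cell types moved at the same time. Of 14 extraembryonic endoderm markers, 12 rose and 0 fell at T60 in Ctrl, among them Afp (7.51) and Foxa2 (5.73) on the log2 scale and Ttr, and the median of the list was 4.39 against -0.01 for all features. Their summed level was between 114 and 150 CPM at T0, with Ttr at 0 in all 3 libraries so that no fold is given for it, and between 748 and 874 CPM at T60. Of 25 mesenchymal genes tested (26 on the list), 23 rose and 0 fell, led by Col3a1 (5.04), Col1a2 (5.03) and Cdh11 (3.93), and their summed level went from between 1528 and 1574 to between 3356 and 3891 CPM. Of 8 trophoblast markers tested 3 rose and 4 fell, with sums from 107 to 122 CPM at T0 (Prl3d1 at 0) and from 119 to 150 CPM at T60. Of 10 neural markers tested 6 rose and 3 fell, with sums from 340 to 344 CPM at T0 and from 119 to 136 CPM at T60. Several genes of these lists are also expressed in other lineages, and their part in the changes of the 9 genes was not tested.

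Related epithelial and adhesion genes moved in both directions. Of 32 other keratin and junction genes, 16 rose and 3 fell at T60 in Ctrl (median 0.54), where 50.6% of all features were called, so the list is not set apart by its count. The largest changes were in Krt20 (4.35), a keratin of differentiated epithelia, Rab25 (-2.58), an epithelial GTPase of membrane traffic, and Dsc2 (2.44), a desmosomal cadherin. Of 25 integrin, laminin and hemidesmosome genes, 12 rose and 2 fell (median 0.49), led by Itga2 (5.43), Itgb6 (4.03) and Lama1 (2.54). In Ctrl 23 of the 25 reached a mean of 1 CPM at T0, and Itgb6 was at 0 in all T12 libraries. Folds of the lowest genes of this list are therefore less certain. In Ctrl MCM2-2A cells, with 47.5% of all features called, 18 of the 32 rose and 4 fell, and 15 of the 25 rose and 3 fell.

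The next question was what POLE4 depletion did to the genes in cells with WT MCM2. None of the 9 was called by edgeR at any time. The share of all features called was 0% at T0, 0% at T12, 0% at T24, 0.193% at T60 and 0% at 96 h. An unadjusted p below 0.05 was reached by 1, 2, 4, 6 and 4 of the 9 genes in this order. Among all tested features it was reached by 2069 of 17792, 1150 of 17914, 1451 of 19093, 2446 of 17116 and 2164 of 17580. DESeq2 and edgeR with a replicate block also called 0 of the 9 at each time, although the block called 6 features at T0 and 142 at 96 h, where the replicate numbers pair the cultures. At T60 every dPOLE4 library lay below every Ctrl library for Cdh2 (66.2, 70.1 and 77.9 against 93.1, 105 and 85.3 CPM), a log2 fold change of -0.38 (SE 0.08, adjusted p = 0.0224). Vim stood at 258, 270 and 295 against 361, 355 and 324 CPM, a log2 fold change of -0.32 (SE 0.06, adjusted p = 0.0176). Both differences were under the fold threshold and above the adjusted p threshold. Every dPOLE4 library at T60 lay above every Ctrl library for Krt8 (0.18), Krt18 (0.18), Itgb4 (0.19), Cdh1 (0.12) and Epcam (0.12). At T24 this held for Krt8 (0.27), Krt18 (0.32), Itgb4 (0.14) and Cdh1 (0.10), while Cdh2 (-0.46) and Vim (-0.22) lay lower without overlap. Krt19 and Cldn6 overlapped at both times, and Epcam at T24. The share of all features whose libraries did not overlap was not counted, so nothing about the 9 genes is read from these separations.

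Itgb4 in these cells was measured at 25, 15.7 and 19 CPM in dPOLE4 at T0 beside 17.6, 14.5 and 14.4 CPM in Ctrl, and the libraries overlapped. The replicate numbers pair the cultures at T0, and each dPOLE4 culture held more Itgb4 than its Ctrl partner. The same held in each pair for the 3 keratins, Cdh1 and Cldn6, while Vim was lower and Cdh2 and Epcam went both ways. Krt19 was nearly equal in replicate 2 (78.2 against 77 CPM) and replicate 3 (76.5 against 76.4 CPM). The replicate block called none of the 9 genes. The share of all features that kept the same direction in each pair was not counted, so nothing about the genes is read from these directions. The log2 fold changes of Itgb4 were 0.35 at T0 (adjusted p = 0.405), 0.14 at T24 (adjusted p = 0.693) and 0.19 at T60 (adjusted p = 0.262). At T12 its libraries overlapped (19, 17.3 and 18.9 against 19, 17.7 and 16.7 CPM). After 96 h Itgb4 stood at 23.4, 28.6 and 27.3 CPM in dPOLE4 and at 18.3, 19.5 and 17 CPM in Ctrl, without overlap, giving a log2 fold change of 0.55 (SE 0.10, adjusted p = 0.103). Epcam at 96 h stood at 41, 41.4 and 46.7 CPM in dPOLE4 and at 52.2, 60.1 and 58.1 CPM in Ctrl, giving a log2 fold change of -0.39 (adjusted p = 0.117).

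In MCM2-2A cells at T12, T24, T60 and 96 h, every library with POLE4 depletion held more Itgb4 than every Ctrl MCM2-2A library of the same time. At T0, the contrast that brought it into the list, dPOLE4 MCM2-2A libraries held 51.9, 53.3 and 51.3 CPM and Ctrl MCM2-2A libraries 29.3, 26.5 and 29.5 CPM, a log2 fold change of 0.88. Of all features 0.0715% were called there, Itgb4 as 1 of 9, and nothing is read from that count; with the replicate block, which pairs the cultures at T0, 143 features were called in place of 13. At T12 the values were 37.6, 46.2 and 38 against 23.6, 25.5 and 27.3 CPM, a log2 fold change of 0.67 (SE 0.09, adjusted p = 0.00307). At T24 they were 34.4, 47.2 and 38.9 against 26.3, 27.8 and 28.5 CPM, 0.54 on the log2 scale (SE 0.10, adjusted p = 0.00582), which missed the fold threshold. At T60 they were 49.4, 58.4 and 45 against 31.7, 32.2 and 30.9 CPM, 0.69 on the log2 scale (SE 0.10, adjusted p = 0.00181). After 96 h they were 42.6, 63.6 and 60 against 32.6, 40.2 and 39.3 CPM, 0.56 on the log2 scale (SE 0.14, adjusted p = 0.128). The separation of the groups at T0 follows from the choice of the gene and is not counted with that at the later times. The share of all features without overlap was not counted. At T12 the call was lost without Ctrl MCM2-2A replicate 1 (0.62, adjusted p = 0.0303) or dPOLE4 MCM2-2A replicate 2 (0.58, adjusted p = 0.0207). At T60 it was lost without Ctrl MCM2-2A replicate 3 (adjusted p = 0.0182) and without dPOLE4 MCM2-2A replicate 2 (0.58).

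**Figure D4:**
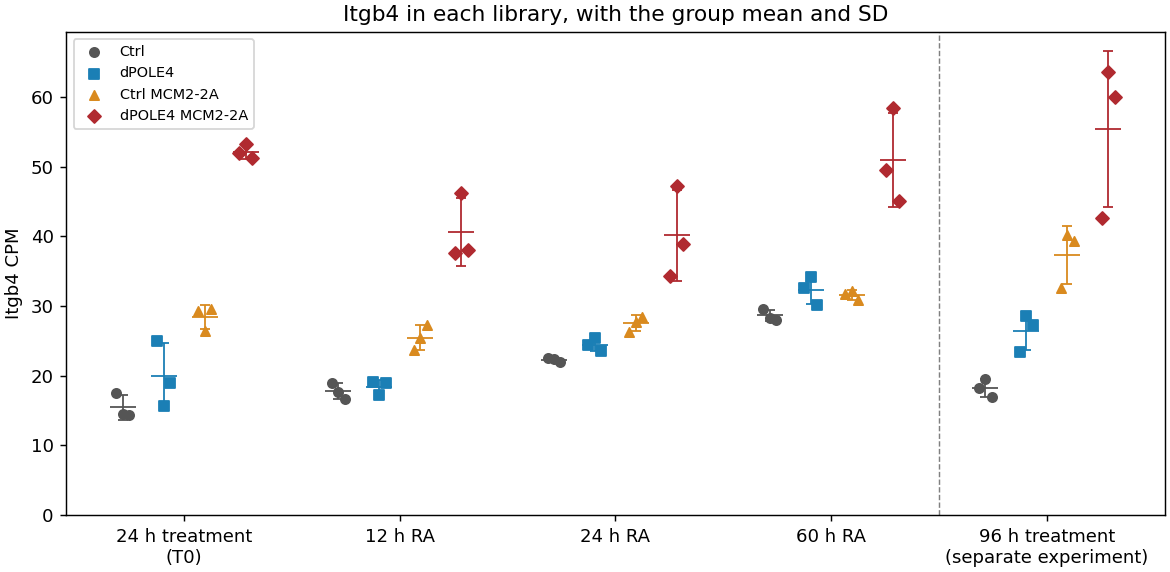
Itgb4 level in CPM (linear axis from 0) in each library of the 20 groups, with a dash for the group mean and bars for the SD. The dPOLE4 MCM2-2A libraries lie between 34.4 and 63.6 CPM and above the Ctrl MCM2-2A libraries of the same time. At T0 that contrast brought Itgb4 into the list. Values right of the dashed line come from the separate 96 h experiment and its own scaling.

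Whether the effect of POLE4 depletion on Itgb4 differed between backgrounds was tested as an interaction. At T0 the interaction holds the values that brought Itgb4 into the list, and the difference of 0.54 is given there without a test. The difference was 0.64 at T12 (SE 0.13, adjusted p = 0.112), 0.40 at T24 (adjusted p = 0.333) and 0.51 at T60 (SE 0.13, adjusted p = 0.0918) on the log2 scale, so edgeR called it at none of these times. At 96 h the effects themselves were 0.55 and 0.56. None of the 9 genes was called in these interactions, where 0.00526% of features were called at T0, 0.0159% at T12, 0.0351% at T24, 0.1% at T60 and 0% at 96 h. The genes with an unadjusted p below 0.05 numbered 1, 2, 2, 3 and 0 in this order, and nothing is read from the T0 count for Itgb4. Among all tested features the numbers were 1024 of 19007, 1399 of 18911, 1759 of 19961, 1922 of 18982 and 686 of 18555. DESeq2 called 1 of the 9 at T12, which was Itgb4 (adjusted p = 0.00846), and 0 at the other times.

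Among the partners of Itgb4, no integrin, laminin or hemidesmosome gene was called in dPOLE4 MCM2-2A against Ctrl MCM2-2A at T0, T12, T24, T60 or 96 h, of 22 to 25 tested. With between 0.0715% and 2.25% of all features called at these times, lists of this size would hold few calls or none, and nothing about the partners is read from this. Itga6, which encodes the alpha chain that pairs with integrin beta 4 and is named here after its values were seen, stood at 176 CPM after depletion against 187 CPM without it at T0, a log2 fold change of -0.08 (adjusted p = 0.672), and at 136 against 119 CPM at T60, a log2 fold change of 0.19 (adjusted p = 0.115). Itgb4 overlaps an annotated gene on the opposite strand along 5664 bases. The libraries were strand specific, but the strand setting of the counting is not given in the sources used here, so reads of the opposite gene cannot be told apart.

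Other members were called at single times after POLE4 depletion in MCM2-2A cells. At T12 Itgb4 was the only 1 of the 9 (0.404% of features), and Krt18 stood at 76, 86.2 and 69.3 against 47.9, 56.1 and 54.1 CPM, 0.55 higher on the log2 scale (SE 0.08, adjusted p = 0.00584) and under the fold threshold. At T24 Krt18 was the 1 gene called (1.02% of features), at 139, 168 and 167 against 94, 105 and 115 CPM, a log2 fold change of 0.60 (SE 0.09, adjusted p = 0.0011). Krt8 was 0.39 higher at T24 (adjusted p = 0.00245), without overlap of libraries and under the fold threshold. The Krt18 call was lost without any of 4 of the 6 libraries, with values between 0.52 and 0.60. By T60 its libraries overlapped (1126, 1476 and 1259 against 995, 1182 and 1194 CPM). In cells with WT MCM2 Krt18 was 0.31 higher at T12, with overlap. At T24 Krt18 was 0.32 and Krt8 0.27 higher there, without overlap and not called. The difference between backgrounds was 0.24 at T12 and 0.27 at T24 for Krt18, and 0.11 at T24 for Krt8. None of these differences was called, so the keratin rise is not shown to be particular to MCM2-2A cells.

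At T60 in this comparison 3 of the 9 were called beside a background of 2.25%. Cdh2 stood at 29.1, 28.5 and 32.7 CPM in dPOLE4 MCM2-2A and at 44.5, 51.9 and 51.6 CPM in Ctrl MCM2-2A, a log2 fold change of -0.71 (SE 0.09, adjusted p = 0.00105). Vim stood at 177, 191 and 186 against 251, 292 and 294 CPM, a log2 fold change of -0.60 (SE 0.07, adjusted p = 0.000936). The third gene was Itgb4, given above, so the N-cadherin and vimentin genes were lower and the integrin gene was higher, while Cdh1, Epcam and the keratins overlapped between the groups. Without Ctrl MCM2-2A replicate 3 none of the 3 was called (Cdh2 -0.68, adjusted p = 0.0134; Vim -0.56, adjusted p = 0.0132), and Vim was also not called without Ctrl MCM2-2A replicate 2 (-0.55) or dPOLE4 MCM2-2A replicate 1 (-0.57). Of 25 mesenchymal genes tested 6 fell and 0 rose in this comparison, led by Col1a2 (-1.72), Col3a1 (-1.32) and Twist1 (-1.01), with a median of -0.45 against 0.00 for all features. Of the 12 ES cell markers 3 rose and 0 fell, with a summed level between 1238 and 1519 CPM in dPOLE4 MCM2-2A and between 1132 and 1343 CPM in Ctrl MCM2-2A; of the 14 extraembryonic endoderm markers 3 fell, with sums between 832 and 887 against 1024 and 1123 CPM. Of 9 trophoblast markers tested 4 rose and 0 fell (median 0.60), with sums from 112 to 122 against 86 to 87.9 CPM and Tpbpa at 0 in both groups. Of 9 neural markers tested 0 rose and 2 fell, with sums from 62.2 to 69.4 against 76.5 to 79.1 CPM. Their part in the lower Cdh2 and Vim was not tested. At 96 h none of the 9 was called by edgeR (0.304% of features) or by DESeq2, with 53 features called by edgeR and 307 under the replicate block. An unadjusted p below 0.05 was reached in edgeR by 7 of the 9 genes and by 2004 of 17421 features. Krt18 was 0.53 higher at 96 h (adjusted p = 0.148).

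The Ctrl MCM2-2A line was also set against Ctrl at each time. The median log2 fold change over the tested genes of chromosome 11 lay between -0.55 and -0.48 at the 5 times, with 15.4% to 19.6% of its genes above 0, and that of chromosome 15 lay between 0.47 and 0.56, with 87% to 90.2% of its genes above 0. Krt19 and Itgb4 lie on chromosome 11 and Krt8 and Krt18 on chromosome 15, so their values are to be read beside these shifts. Medians of chromosomes 2, 8, 17 and 18, which hold the other 5 genes, lay between -0.08 and 0.02.

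At T0, 6 of the 9 were called (18.9% of features). Krt8 was measured at 93.1, 97.3 and 93.2 CPM against 249, 203 and 171 CPM in Ctrl, giving a log2 fold change of -1.15 (SE 0.11, adjusted p = 6.08e-06), and Krt18 at 68.6, 65.3 and 62.5 CPM against 199, 155 and 135 CPM, a log2 fold change of -1.34. Both were thus lower on a chromosome whose median was 0.56 higher. Krt19 stood at 22.4, 18.5 and 15.9 CPM, a log2 fold change of -2.22 (SE 0.14, adjusted p = 2.96e-07), a larger fall than the chromosome 11 median of -0.48. Cdh2 stood at 3.67, 5.05 and 3.75 CPM, a log2 fold change of -1.93 (SE 0.19, adjusted p = 9.55e-06), and Vim was 0.71 lower on the log2 scale. The Vim call was lost without Ctrl replicate 1 (-0.55). Itgb4 was 0.87 higher, against the direction of its chromosome. The Ctrl MCM2-2A libraries at T0 are among those that brought Itgb4 into the list. Its value is therefore given without a test, and nothing is read from its place in the count. Cdh1 (0.29) and Epcam (0.40) were higher without overlap of libraries and under the fold threshold.

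During RA fewer of the 9 were called. At T12, 5 were called (14.5% of features): Krt8 (-1.19), Krt18 (-1.18), Krt19 (-2.48), Cdh2 (-2.08) and Vim (-1.12). At T24, 4 were called (17.3%): Krt19 (-1.19), Cdh2 (-2.38), Vim (-1.29) and Epcam (0.78). By T60 only Krt8 (0.66, adjusted p = 1.83e-05) and Cdh2 (-0.92, adjusted p = 6.7e-07) were called (16.9%), and Krt8 had changed side, with 1091, 1304 and 1293 CPM against 835, 699 and 816 CPM. That Krt8 difference lay near the chromosome 15 median of 0.47 at this time. Krt18 was 0.41 higher and Krt19 0.16 lower at T60, the second with overlap of libraries. After 96 h of DMSO, 2 were called (15.7%), Itgb4 (1.06, adjusted p = 1.61e-05) and Cldn6 (1.05, adjusted p = 1.92e-05), with Cldn6 at 56.1, 64.2 and 52.5 CPM against 31.6, 28.5 and 24.5 CPM.

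**Figure D5:**
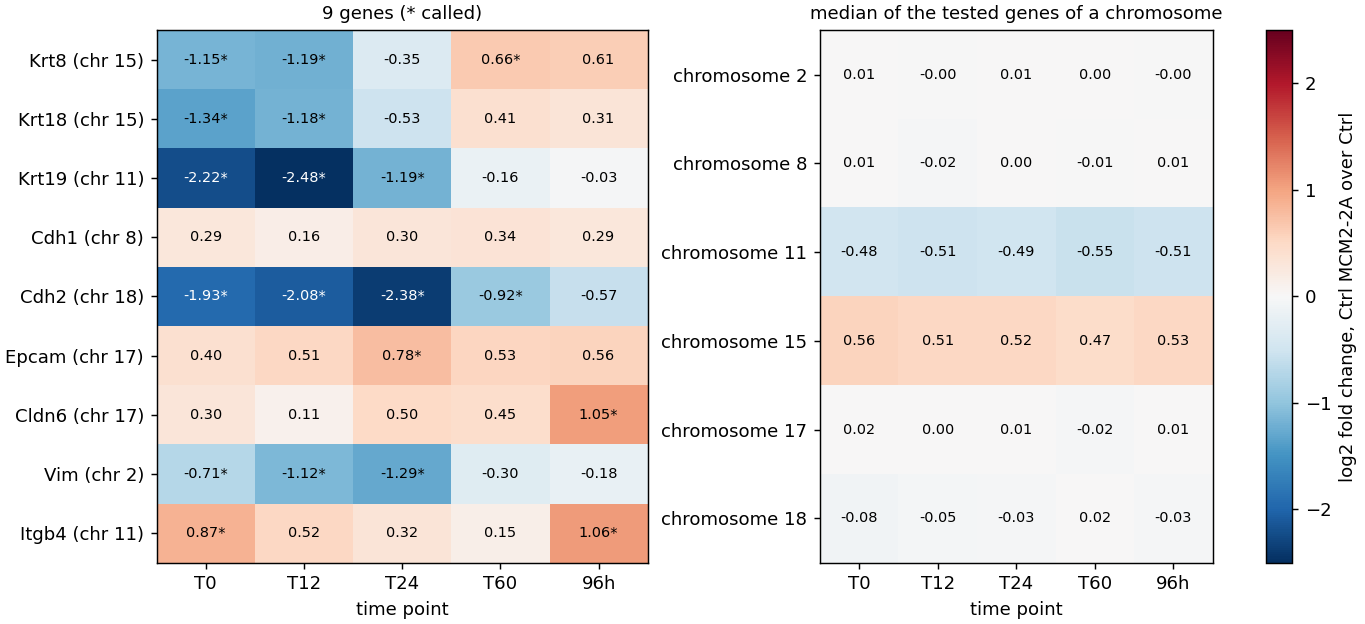
Log2 fold change of Ctrl MCM2-2A over Ctrl at T0, T12, T24, T60 and 96 h for the 9 genes (left, with their chromosome, * called) and the median over the tested genes of each of their chromosomes (right), on the same colour scale. Keratins, Cdh2 and Vim are lower at T0 and T12, and Krt8 is 0.66 higher at T60, while the median of chromosome 11 is below 0 and that of chromosome 15 above 0 at every time.

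Markers of other cell types were counted between the lines as well, beside the 18.9% of all features called at T0. At T0, 7 of 11 extraembryonic endoderm markers tested were higher and 0 lower in Ctrl MCM2-2A, led by Gata4 (2.43), Amn (2.04) and Sox7 (2.04), with sums between 271 and 350 CPM against 114 and 150 CPM in Ctrl. Of 22 mesenchymal genes tested 3 were higher and 11 lower, led by Acta2 (-3.81), Col3a1 (-2.98) and Tagln (-2.90), with sums between 1183 and 1214 against 1528 and 1574 CPM. Among 31 keratin and junction genes 6 were higher and 3 lower, led by Cldn3 (1.37), Krt7 (1.30) and Dsp (-1.30). Of 23 integrin, laminin and hemidesmosome genes 3 were higher and 8 lower, led by Itgb8 (-3.61), Itgb3 (-1.46) and Col17a1 (1.42). Their part in the lower keratins, Cdh2 and Vim was not tested.

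The responses to 60 h of RA were then compared directly. From T0 to T60, Krt8 rose 13.1-fold in Ctrl MCM2-2A cells and 3.71-fold in Ctrl cells, Krt18 17.3-fold and 5.16-fold, Krt19 12.3-fold and 2.94-fold, and Cdh2 12.4-fold and 6.09-fold. The interaction called 5 of the 9 genes where 9.1% of features were called. The difference of the response was 1.79 for Krt8 (SE 0.15, adjusted p = 1.04e-07), 1.72 for Krt18 (SE 0.15), 2.03 for Krt19 (SE 0.18) and 0.99 for Cdh2 (SE 0.21, adjusted p = 0.00225). For Itgb4 it was -0.74, where Itgb4 stood at 28.4 ± 1.7 CPM at T0 and 31.6 ± 0.677 CPM at T60 in Ctrl MCM2-2A cells. This difference holds T0 libraries that brought Itgb4 into the list, so it is given without a test and nothing is read from its call. The larger folds went with lower starting levels rather than with higher levels at T60 for Krt19 (201, 235 and 247 CPM against 287, 232 and 251 CPM) and for Cdh2 (44.5, 51.9 and 51.6 CPM against 93.1, 105 and 85.3 CPM). The medians of chromosomes 11 and 15 in this difference were -0.09 and -0.10. In the same interaction, of 25 mesenchymal genes tested 7 had a higher and 3 a lower difference, led by Acta2 (3.52), Tagln (2.98) and Col3a1 (2.05). Of the 12 ES cell markers 6 had a higher and 0 a lower difference (median 0.66), and of the 14 extraembryonic endoderm markers 0 had a higher and 3 a lower one. Between the lines at T60, 16.9% of all features were called. Of the 12 ES cell markers 10 were higher and 0 lower in Ctrl MCM2-2A (median 1.18), with sums from 1132 to 1343 CPM against 664 to 768 CPM in Ctrl. Of 25 mesenchymal genes tested 2 were higher and 9 lower there (median -0.36), with sums from 2959 to 3258 against 3356 to 3891 CPM. Higher and lower were 7 and 2 of the 14 extraembryonic endoderm markers, 2 and 3 of 8 trophoblast markers tested, and 0 and 5 of 10 neural markers tested. Their part in the differences of the keratins and Cdh2 was not tested.

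No change of the T60 response by POLE4 depletion was called by edgeR for any of the 9 genes. In cells with WT MCM2 0.0104% of features were called, and DESeq2 called 0 of the 9. There 1 gene and 2518 of 19306 features had an unadjusted p below 0.05. In MCM2-2A cells 0.254% of features were called, and 3 genes and 2436 of 19656 features had an unadjusted p below 0.05. In MCM2-2A cells the Cdh2 response was 0.83 smaller on the log2 scale after depletion (a difference of -0.83, SE 0.18, adjusted p = 0.0309), which DESeq2 called (adjusted p = 0.00232). These interactions share libraries with the comparisons at T0 and T60 above and are no further evidence for them.

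In the 96 h experiment the keratins were low in cells with WT MCM2 and varied between cultures. Krt8 was measured at 99.8, 59.8 and 37.1 CPM in Ctrl and at 82, 47.4 and 29.6 CPM in dPOLE4. Same-numbered cultures, which are paired at 96 h, lay near each other, with dPOLE4 the lower in each pair. Krt18 spread alike (74, 49 and 28 CPM in Ctrl), and so did Krt19 (28.9, 22.7 and 11 CPM). In dPOLE4 Krt18 stood at 69, 45 and 23.4 CPM and Krt19 at 22.6, 13.1 and 9.82 CPM, also lower in each pair. None of the 3 keratins was called with the replicate block. The share of all features lower in each pair was not counted, so nothing is read from these directions. In the MCM2-2A line Krt8 lay closer together, at 81.5, 106 and 109 CPM in Ctrl MCM2-2A. The Krt8 difference between the lines at 96 h was 0.61 (SE 0.25, adjusted p = 0.0732) with overlap of libraries, and without Ctrl replicate 1 it was 1.05 and called. The value of 0.61 lay near the chromosome 15 median of 0.53 at 96 h. At T0 the Krt8 difference had the other sign, and both Krt8 values come from the same clones in separate experiments.

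Over the 16 groups of the 24 h and RA experiment, the gene whose group mean log2 CPM was most like that of Krt8 among 15509 genes was Krt18 (Pearson r = 0.994), followed by Tpm4 (0.99), a tropomyosin, and Myl6 (0.989), a myosin light chain. For Krt18 they were Krt8, Tpm4 (0.992) and Clic1 (0.989), for Krt19 Capn2 (0.994), Tagln (0.992) and Axl (0.991), and for Cdh2 Col3a1 (0.994), Tnc (0.99) and Efnb2 (0.99). Vim was most like Rnd3 (0.987), Tspan14 (0.979) and Skiv2l (0.965), and Cldn6 most like Txndc12 (0.986), Pcdhgc4 (0.983) and B4galt1 (0.983). For Epcam they were Atp5g2 (0.967), Racgap1 (0.966) and Cdca2 (0.958). The likeness was weaker for Itgb4, with Ptgr1 (0.946), Lpin1 (0.943) and Rabgef1 (0.908), and for Cdh1, with Rusc2 (0.902), Tmem185b (0.901) and Ppp2r5b (0.898). Among the 9 genes themselves, Krt19 and Cdh2 went together with r = 0.949 and Krt8 and Krt19 with r = 0.944, whereas Itgb4 and Krt19 had r = -0.06 and Cdh1 and Cdh2 r = 0.14. These correlations describe 16 group means that share lines and times, and no p is given for them.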

How the data were processed

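RNA of 60 libraries (20 groups, 3 cultures each) was sequenced by the authors from rRNA-depleted, strand-specific libraries. The authors trimmed reads with cutadapt 4.2, aligned them to mm10 with STAR keeping multiple alignments, and counted them with TEcount on GENCODE M25 genes and repeat subfamilies; the deposited values are raw counts per feature, neither normalized nor pooled. The tables list 56633 features (55487 genes, the rest repeats); positions and symbols came from GENCODE M21 of the same build, which placed 55227 genes. The members and gene lists were chosen with earlier results of these data known.

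Counts of the groups compared passed filterByExpr at a count of 10 and a total of 15, scaled with TMM over genes and repeats, and tested with edgeR 4.0.16 in R 4.3.3 (quasi-likelihood F test, Benjamini-Hochberg over all features). The paper's methods name DESeq2, which was an alternative here (version 1.42.0). Interactions were fitted on the 4 groups they involve. Log2 CPM used a prior count of 2. The procedure was tested on simulated data. Precision is limited by 3 cultures per group. All 9 members are named; of each further list the 3 called genes with the largest change, and for each member the 3 genes of highest Pearson r among genes with a mean of at least 1 CPM. Replicate numbers are shared across groups: deviations of same-numbered libraries correlated above 0.1 in all 3 pairs for POLE4 depletion at T0 (r between 0.11 and 0.35) and at 96 h (between 0.12 and 0.38) and for the lines at 96 h, and not in the other comparisons. Alternatives were other scalings, filters, DESeq2, a replicate block, all groups in 1 fit, no fold threshold, and leaving out each library.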

Additional observations from a re-analysis of the deposited data

Results flagged for a closer look

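The response to 60 h of RA differed between Ctrl MCM2-2A and Ctrl cells in Krt8, Krt18, Krt19 and Cdh2, by the interaction test in edgeR. Of all features 9.1% were called there. The difference of the log2 fold change was 1.79 for Krt8, 1.72 for Krt18, 2.03 for Krt19 and 0.99 for Cdh2, all larger rises in Ctrl MCM2-2A cells, and -0.74 for Itgb4, a smaller rise. Krt8, Krt18, Krt19 and Cdh2 were also called by DESeq2 and with the replicate block. For Itgb4 the difference is a description only and nothing is read from its calls. The Ctrl MCM2-2A libraries at T0 are among those that brought it into the list. The Cdh2 difference lost its call without Ctrl MCM2-2A replicate 3 of T0 (0.93, adjusted p = 0.0109 in edgeR). With 1 clone per line, the mutation and the clone cannot be told apart, and the median shifts of chromosomes 11 and 15 between the lines are given with the comparison of the lines.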

How the results depend on the processing

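Counts below are of the 9 genes called by edgeR, and only the larger changes of these counts are listed. Without the fold threshold they became 2 (from 1) at T12 and 7 (from 2) at T24 of RA in Ctrl, 2 (from 1) at T12 and 3 (from 1) at T24 after POLE4 depletion in MCM2-2A cells, and 9 (from 4) at T24 and 7 (from 2) at T60 between the lines. Smaller changes are left out, such as Epcam (adjusted p = 2.54e-05) and Vim (adjusted p = 0.000235) passing in edgeR at T60 of RA in Ctrl. The share of all features passing without the fold threshold was not counted, so nothing about the genes is read from these counts. Without the filter on low counts the counts became 4 (from 2) between the lines at 96 h and 1 (from 0) in the interaction of depletion and background at T12 and at 96 h. Krt8 between the lines at 96 h kept nearly the same value without the filter (0.59, adjusted p = 1.58e-07 in edgeR) as with it (0.61, adjusted p = 0.0732). Its libraries overlapped, so the added call is not read as a larger difference. The change of the T60 response by depletion in MCM2-2A cells had 1 gene (Cdh2) without the filter, with DESeq2 and with the replicate block, in place of 0. DESeq2 called 1 in the interaction at T12 in place of 0. The replicate block gave 0 in place of 1 at T12 after depletion in MCM2-2A cells (Itgb4 0.67, adjusted p = 0.0259), where the numbers are not shown to pair cultures. Where the numbers pair cultures, the block changed no count of the 9 genes. The cause of these changes was not tested.

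Leaving out 1 library gave 0 to 2 genes at T12 of RA in Ctrl (0 without Ctrl T0 replicate 1), and after depletion in MCM2-2A cells 0 to 1 at T0 (0 without replicate 2 of either group, a description only, since the gene is Itgb4 and this contrast chose it), 0 to 2 at T12, 0 to 2 at T24 and 0 to 3 at T60. Itgb4 at T60 of RA in dPOLE4 lost its call without dPOLE4 T0 replicate 2 (0.54). Alternatives were run for 112 values of single genes, those called or printed, and none of these changed sign; other values near 0 were not rerun. Scaling with DESeq2's size factors, TMM from genes only or TMM without chromosomes 11, 14 and 15 changed no call of the genes named. The depth limits the low genes most, with Cdh2 at 3.67 to 5.05 CPM in Ctrl MCM2-2A at T0.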
